A study of Mus musculus with 3 samples.

Results

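The 10 core and output genes of the circadian clock, chosen by symbol, were followed in single-cell RNA-Seq of mouse diaphragm: Arntl, Clock, Dbp, Tef, Nr1d1, Nr1d2, Per1, Per2, Per3 and Ciart, 10 of the 32285 genes counted. The data were 3 libraries of mononuclear cells from digested costal diaphragm of male mice, 1 library per group. WT CD was C57Bl/6J mice kept for 6 months on the control chow 5L0D, and WT HFD was the same strain kept for 6 months on a diet with 45% of its energy as lipid. KO HFD was the whole-body knockout strain B6.129S2-Thbs1tm1Hyn/J, which is labelled as lacking the gene for thrombospondin-1 throughout the body, on that same high-fat diet for 6 months. The study pooled 2 mice per library, began the diets at 2 months of age, and isolated all samples on the same day. The hour of collection is not given in the sources used here, so an hour that differed between the groups cannot be told apart from diet or genotype. With 1 library per group there is no test between groups. Levels are in CPM, the summed unique molecular identifiers (UMIs, 1 per captured molecule) of a gene in a cell class and library per 1000000 UMIs of that class. Every interval given is an exact 95% interval that covers counting error and not the spread between mice.

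The clock is a feedback loop that runs in nearly all cells. Arntl (BMAL1) and Clock form the activating pair, which binds E-box sequences and turns on the period genes, the REV-ERB genes Nr1d1 and Nr1d2, the output factors Dbp and Tef, and Ciart. The period proteins and Ciart restrain that pair, and the REV-ERB proteins repress Arntl, so transcripts of Dbp and Nr1d1 peak at the time of day when Arntl is low. Dbp and Tef activate genes that hold D-box sequences, among them Per genes. In skeletal muscle the clock times genes of fuel use, and feeding schedules and glucocorticoids can reset it. Clocks of different cells in a tissue run in similar phase, so the question asked here is whether the cell classes moved alike between libraries, as they would after a shift in time of day.

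Promoter letters are shown for 8 of the genes, those that passed 1.5-fold in a class or that differed between cells with and without Dbp in the results below, with matches to the clock motifs in capitals. RefSeq promoter windows (GRCm38.p6, 250 bases before to 50 after a start site) were found for 9 of the 10 genes, 14 windows in all, and not for Per2. The motifs were searched as exact letters on both strands. An E-box, CACGTG, stood in 4 of the 14 windows, those of Tef (both of its starts), Per1 and Ciart, and in 7.15% of all 32851 windows. A second E-box form, CACGTT, stood in the Nr1d1 window and in 4.68% of all windows. A D-box, TTATGTAA, stood at 2 places in the Per3 window and in 0.938% of all windows, and a REV-ERB and ROR core, TAGGTCA, in 1 of the 2 Arntl windows and in 2.61% of all. A cAMP element, TGACGTCA, was in 0 of the 14 windows and in 1.79% of all windows. The 250 bases before the start are printed 5′ to 3′ along the gene. Where a gene has several windows, 1 with a match is shown. In the Dbp and Nr1d2 windows no motif was matched, which says only that these letters are not in them, and the Arntl match lies after the start, outside the bases printed. In the Tef, Per1, Per3 and Ciart windows the capitals mark the motifs as named, and in the Nr1d1 window they mark the second E-box form read on the other strand, AACGTG.
Arntl, chr7:113207261-113207510, plus strand: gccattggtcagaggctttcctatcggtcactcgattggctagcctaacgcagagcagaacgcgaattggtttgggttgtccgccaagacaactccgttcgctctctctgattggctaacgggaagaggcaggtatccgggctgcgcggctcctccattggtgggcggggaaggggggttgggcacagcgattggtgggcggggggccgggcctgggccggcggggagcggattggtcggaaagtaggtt
Dbp, chr7:45704997-45705246, plus strand: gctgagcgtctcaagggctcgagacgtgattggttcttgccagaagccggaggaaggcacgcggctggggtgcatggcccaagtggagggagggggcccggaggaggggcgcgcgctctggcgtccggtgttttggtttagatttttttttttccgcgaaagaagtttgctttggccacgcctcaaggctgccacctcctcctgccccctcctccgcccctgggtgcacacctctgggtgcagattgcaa
Nr1d1, chr11:98775378-98775627, minus strand: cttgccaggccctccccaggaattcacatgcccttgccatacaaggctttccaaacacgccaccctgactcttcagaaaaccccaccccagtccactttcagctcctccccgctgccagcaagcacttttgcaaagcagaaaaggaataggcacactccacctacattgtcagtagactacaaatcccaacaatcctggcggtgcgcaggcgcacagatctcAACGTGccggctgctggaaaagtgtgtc
Nr1d2, chr14:18239107-18239356, minus strand: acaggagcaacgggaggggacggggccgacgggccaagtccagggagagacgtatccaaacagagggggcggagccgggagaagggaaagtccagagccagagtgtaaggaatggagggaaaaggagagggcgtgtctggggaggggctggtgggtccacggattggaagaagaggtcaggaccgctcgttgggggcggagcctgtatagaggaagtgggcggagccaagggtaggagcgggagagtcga
Tef, chr15:81811164-81811413, plus strand: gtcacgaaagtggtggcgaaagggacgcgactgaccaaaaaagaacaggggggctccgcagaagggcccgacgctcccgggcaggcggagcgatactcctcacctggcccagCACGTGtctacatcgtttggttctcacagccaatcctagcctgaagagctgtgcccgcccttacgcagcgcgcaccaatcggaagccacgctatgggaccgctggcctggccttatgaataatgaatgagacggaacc
Per1, chr11:69098699-69098948, plus strand: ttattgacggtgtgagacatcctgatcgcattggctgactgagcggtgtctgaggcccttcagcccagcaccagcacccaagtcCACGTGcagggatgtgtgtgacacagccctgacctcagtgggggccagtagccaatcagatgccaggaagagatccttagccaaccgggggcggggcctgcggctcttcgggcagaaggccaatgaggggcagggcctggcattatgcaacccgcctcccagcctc
Per3, chr4:151044666-151044915, minus strand: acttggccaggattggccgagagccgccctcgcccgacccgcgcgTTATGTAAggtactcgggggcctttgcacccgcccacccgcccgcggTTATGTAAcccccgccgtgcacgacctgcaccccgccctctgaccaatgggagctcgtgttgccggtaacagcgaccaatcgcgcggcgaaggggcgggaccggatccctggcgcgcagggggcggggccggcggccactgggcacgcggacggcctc
Ciart, chr3:95882229-95882478, minus strand: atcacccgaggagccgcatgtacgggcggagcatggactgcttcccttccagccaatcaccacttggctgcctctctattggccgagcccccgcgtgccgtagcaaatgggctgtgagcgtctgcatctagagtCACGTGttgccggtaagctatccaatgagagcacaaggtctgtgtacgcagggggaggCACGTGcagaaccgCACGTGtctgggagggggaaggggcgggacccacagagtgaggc

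The knocked-out gene was read first as a check of the labels. Thbs1 stood at 136 CPM in the WT CD library, 202 CPM in WT HFD and 163 CPM in KO HFD, and within fibro-adipogenic progenitors (FAPs) at 193, 234 and 224 CPM. The library labelled KO HFD thus lay between the other 2, below WT HFD and above WT CD. The chemistry reads the 3′ end of transcripts, so this count is no check if the altered part of the gene lies elsewhere, and the position of the altered part is not given in the sources used here.

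The WT CD library held 4132 barcodes and 34312860 UMIs, WT HFD 3774 barcodes and 31967976 UMIs, and KO HFD 4369 barcodes and 36478779 UMIs, with median depths of 7632.5, 8041.5 and 7554 UMIs per cell. The libraries shared 7, 7 and 2 barcodes pairwise. A cell was placed in a class when at least 3 of that class's 6 markers had a UMI and at least 2 more were found than of any other class, which placed 86.5, 87.7 and 86.7% of the cells. The 5 classes compared held at least 50 cells in every library. FAP-like cells (2203, 1967 and 2401 cells in WT CD, WT HFD and KO HFD) are the resident stromal progenitors of muscle. Muscle stem cell (MuSC)-like cells numbered 329, 260 and 432, endothelial-like cells 277, 278 and 222, macrophage-like cells 211, 396 and 434, and B cell-like cells 353, 147 and 87. All 6 markers of each class were found in at least 10% of its cells, and no marker of another class stood among the 10 leading genes of any of the 5.

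The 10 genes together gave 17294 UMIs, of which 67.7% lay in FAP-like cells, a class that held 58.6% of all UMIs. Ciart departed from this, with 23.9% of its 351 UMIs in FAP-like cells. A gene was read for change in a class when it had at least 100 UMIs there over the 3 libraries, which was met by 22 of the 50 pairs of gene and class: 9 in FAP-like, 5 in MuSC-like, 3 in endothelial-like, 4 in macrophage-like and 1 in B cell-like cells. Free RNA in the droplets was not removed, so levels of a few CPM need not come from the cells themselves.

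Levels over the 5 classes, with the 3 libraries pooled, set FAP-like and endothelial-like cells apart from macrophage-like and B cell-like cells for the activating pair. Arntl was at 32.9 CPM in endothelial-like and 31.6 in FAP-like cells, whose library ranges overlapped, then at 18.9 in MuSC-like, 9.39 in macrophage-like and 7.46 in B cell-like cells. The library range of MuSC-like cells lay apart from those of FAP-like and macrophage-like cells and overlapped that of B cell-like cells (12.0 to 22.6 and 4.58 to 16.6 CPM), and the ranges of macrophage-like and B cell-like cells overlapped. Pooling weights libraries by depth, and with libraries weighted alike the order of these last classes turned, to 9.80 and 10.97 CPM, as it did for Nr1d2 in endothelial-like and B cell-like cells (13.6 and 14.7) and for Dbp and Tef in FAP-like and MuSC-like cells. Clock, its partner, ran from 64.8 CPM in endothelial-like, 61.6 in FAP-like and 54.1 in MuSC-like cells to 23.5 in macrophage-like and 16.2 in B cell-like cells, with no overlap of library ranges between neighbours. The order need not hold for blood and vascular cells at large. In classes too small to compare, Arntl was at 23.8 CPM in T cell-like (19 UMIs) and 14.6 in lymphatic-like cells (12 UMIs). Clock was at 16.3 CPM (13 UMIs) and 57.2 CPM (47 UMIs) in them.

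The output factor Dbp was at 7.69 CPM in FAP-like, 7.36 in MuSC-like, 5.16 in B cell-like, 4.32 in macrophage-like and 3.26 in endothelial-like cells. Ranges of FAP-like and MuSC-like cells overlapped. Its relative Tef was at 13.8 CPM in FAP-like and 13.4 in MuSC-like cells, which also overlapped, and at 7.16, 6.48 and 3.82 in endothelial-like, macrophage-like and B cell-like cells. Among the 5 classes the REV-ERB genes were highest in MuSC-like cells, Nr1d1 at 16.3 CPM and Nr1d2 at 31.2, against 11.0 and 20.6 in FAP-like cells. For Nr1d2 these classes did not overlap over the libraries, whereas for Nr1d1 they did. Nr1d1 was nearly without counts in endothelial-like (6 UMIs) and B cell-like cells (7 UMIs).

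Among the period genes, Per1, which also answers acute signals, was at 46.2 CPM in endothelial-like, 33.4 in MuSC-like, 30.6 in macrophage-like, 28.8 in FAP-like and 22.7 in B cell-like cells, and the first 4 of these overlapped from neighbour to neighbour. Per2 was at 11.0 CPM in FAP-like cells, apart from 7.36 in MuSC-like cells. Per3 was at 7.14 CPM in FAP-like and 4.88 in endothelial-like cells, which overlapped. Ciart, a repressor of the activating pair, was at 10.1 CPM in B cell-like and 9.47 in macrophage-like cells, the highest of the 5 classes. It was at 2.28 CPM in endothelial-like, 1.40 in FAP-like and 1.12 in MuSC-like cells. The step between macrophage-like and endothelial-like cells showed no overlap over the libraries. Among classes too small to compare, the 56 neutrophil-like cells gave 24 UMIs of Per1, 11 of Ciart and 4 of Per2 over the 3 libraries, and 0 of the other 7 genes. Per1 was there in each library, with 9, 5 and 10 UMIs. The 153 mesothelial-like cells, the lining of the muscle's surface, had Nr1d1 at 17.0 CPM from 29 UMIs.

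**Figure D1:**
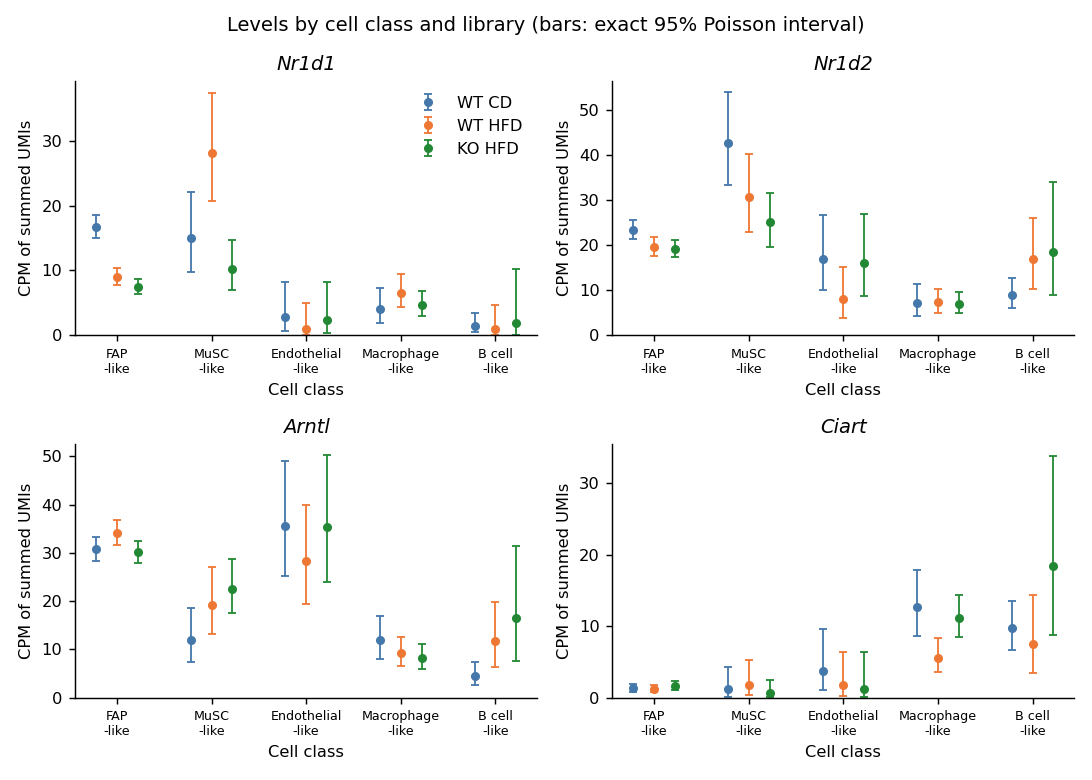
CPM of summed UMIs (y axis) of Nr1d1, Nr1d2, Arntl and Ciart in the 5 cell classes (x axis), with 1 point per library and exact 95% Poisson intervals as bars. Nr1d1 is highest in the WT CD library among FAP-like cells and in the WT HFD library among MuSC-like cells, and Ciart sits highest in macrophage-like and B cell-like cells.

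FAP-like cells carried most of the counts and showed a difference in the Dbp and Nr1d1 pair. Dbp was at 11.7 CPM in WT CD (233 UMIs), 5.68 in WT HFD (107 UMIs) and 5.73 in KO HFD (123 UMIs). The WT CD library stood alone, and the 2 high-fat libraries overlapped. The log2 ratio of WT HFD to WT CD was −1.05 (−1.39 to −0.71), and that of KO HFD to WT HFD was 0.01 (−0.37 to 0.40). Nr1d1 was also highest in WT CD, with 16.7 CPM in WT CD, 8.97 in WT HFD and 7.40 in KO HFD. Its log2 ratio was −0.90 (−1.17 to −0.63) for WT HFD against WT CD and −0.28 (−0.60 to 0.04) for KO HFD against WT HFD. Both comparisons share the WT HFD library. Nr1d2, the second REV-ERB gene, was at 23.3, 19.5 and 19.1 CPM, a smaller step of −0.25 (−0.46 to −0.05) with diet. Set against WT CD directly, KO HFD had log2 ratios of −1.03 (−1.36 to −0.71) for Dbp and −1.17 (−1.46 to −0.90) for Nr1d1.

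The remaining genes of the loop stayed within narrow bounds in FAP-like cells. Arntl was at 30.7 CPM in WT CD, 34.1 in WT HFD and 30.1 in KO HFD, with log2 ratios of 0.15 (−0.01 to 0.31) and −0.18 (−0.34 to −0.02). Clock was at 59.6, 62.7 and 62.4 CPM, so that a diet ratio beyond −0.04 to 0.19 lay outside its interval. Tef, which shares E-box control with Dbp, did not share its difference, with 12.9, 13.2 and 15.1 CPM. Per1 was at 26.1, 30.4 and 29.8 CPM, with a diet log2 ratio of 0.22 (0.05 to 0.39). Per2 was at 10.9, 10.2 and 11.9 CPM and Per3 at 7.55, 7.43 and 6.52 CPM. Ciart, with 26, 23 and 35 UMIs, was below the count needed.

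A ratio of at least 1.5-fold in either direction was met by 2 of the 9 genes in FAP-like cells with diet, Dbp and Nr1d1, where 4.68% of all genes with as many UMIs met it. It was met by 0 of 9 between KO HFD and WT HFD, where 3.46% of all genes met it. The median log2 ratio of the 9 genes was −0.02 with diet and −0.03 with genotype, beside 0.08 and −0.04 over all genes tested in these cells.

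**Figure D2:**
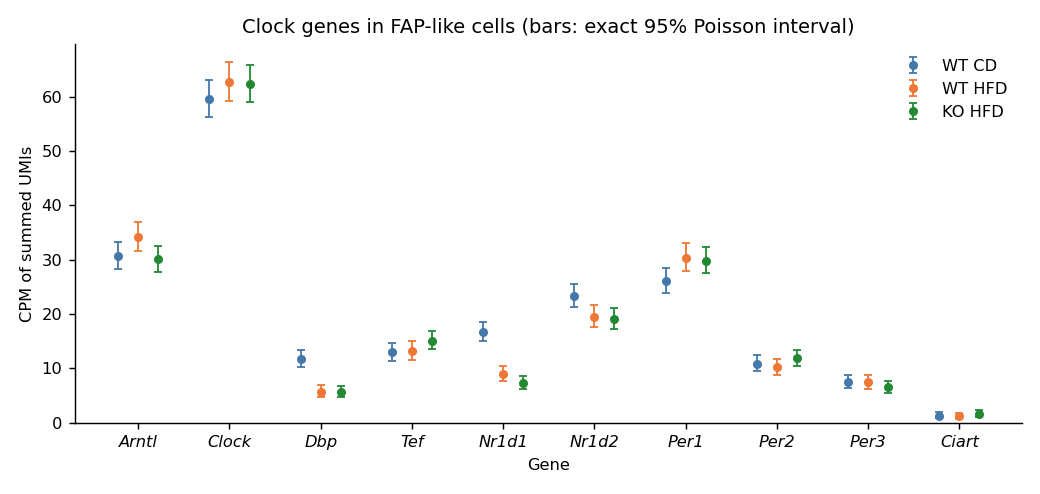
CPM of summed UMIs (y axis) of the 10 clock genes (x axis) in FAP-like cells, 1 point per library, with exact 95% Poisson intervals as bars. The WT CD points of Dbp and Nr1d1 lie at 11.7 and 16.7, above both high-fat libraries, while Arntl, Clock and the Per genes lie close together.

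MuSC-like cells, the progenitors of muscle fibers, showed Nr1d1 in another order. It was at 15.03 CPM in WT CD (25 UMIs), 28.2 in WT HFD (47 UMIs) and 10.3 in KO HFD (30 UMIs). These 102 UMIs were barely over the count needed, and the high WT HFD count brought the gene past it. Here the WT HFD library was the high one, where in FAP-like cells it was among the low ones. The log2 ratio was 0.91 (0.18 to 1.67) for WT HFD against WT CD and −1.46 (−2.17 to −0.77) for KO HFD against WT HFD. The diet intervals of FAP-like and MuSC-like cells did not overlap, as held for 17.6% of all genes with enough UMIs in both. The 47 UMIs were spread over 39 cells, with no more than 3 in a cell. A cluster of cells with cell cycle genes, led by Mxd3 and Ckap2, held 0.608% of the MuSC-like cells in WT CD, 7.31% in WT HFD and 3.47% in KO HFD, with 0, 2 and 1 Nr1d1 UMIs. In the main cluster, led by Gal and Pax7, Nr1d1 was at 16.1, 31.4 and 10.8 CPM. Nr1d2 was at 42.7, 30.6 and 25.0 CPM in the same cells, so with diet the REV-ERB pair did not move together there, while both were lowest in KO HFD. Arntl, the gene they repress, was at 12.0 CPM in WT CD (20 UMIs), 19.2 in WT HFD (32 UMIs) and 22.6 in KO HFD (66 UMIs), with a diet log2 ratio of 0.67 (−0.18 to 1.56) whose interval held 0. Clock was at 56.5, 51.6 and 54.1 CPM and Per1 at 40.9, 35.4 and 28.1 CPM. Below the count needed, Tef was at 20.4, 10.2 and 11.3 CPM (34, 17 and 33 UMIs) and Dbp at 7.82, 9.59 and 5.82 CPM.

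In MuSC-like cells 2 of 5 genes passed 1.5-fold with diet, beside 20.9% of all genes, and 1 of 5 with genotype, beside 5.09%. With diet the median log2 ratio of all genes was shifted in these cells, to 0.21, and in B cell-like cells to 0.16. TMM scaling, which takes such a shift out, gave 0.67 for the diet log2 ratio of Nr1d1 in MuSC-like cells. Under it Arntl was at 0.44, within 1.5-fold, and Nr1d2 at −0.72, past it. RNA of mature fibers moved with the same library. The summed level of 8 fiber genes in MuSC-like cells was 246 CPM in WT CD, 495 in WT HFD and 332 in KO HFD, the 5 of the 8 with enough UMIs were all past 1.5-fold higher with diet and 3 of the 5 were past it lower with genotype, and Acta1, the most abundant of them, was at 107, 220 and 142 CPM. Cells that met no class's gate also had Nr1d1 high in WT HFD, at 4.85, 12.4 and 5.60 CPM. The part of fiber RNA in the Nr1d1 values was not tested.

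In macrophage-like cells Ciart passed 1.5-fold. It was at 12.6 CPM in WT CD (32 UMIs), 5.58 in WT HFD (24 UMIs) and 11.1 in KO HFD (58 UMIs), so that WT HFD was the low library. The log2 ratio was −1.18 (−2.01 to −0.37) with diet and 0.999 (0.29 to 1.75) with genotype, both resting on the same 24 UMIs. Macrophage-like cells lay in different clusters by library: the one led by Mmp12 and Retnla held 37.4, 20.5 and 34.6% of them and the one led by Saa3 and Alox15 held 2.84, 13.1 and 2.995%. In the largest, led by Folr2 and Ccl12 (49.3, 58.1 and 49.8%), Ciart was at 23.7, 8.60 and 19.7 CPM from 19, 15 and 34 UMIs, so WT HFD was the low library there too. Clock was at 19.3, 28.6 and 21.3 CPM in these cells, Arntl at 11.8, 9.29 and 8.27 CPM and Per1 at 28.4, 31.1 and 31.3 CPM. Of 4 genes, 1 passed 1.5-fold in each comparison, Ciart, beside 12.2% of all genes with diet and 6.42% with genotype.

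Endothelial-like cells kept Arntl (35.6, 28.3 and 35.4 CPM), Clock (64.7, 65.5 and 63.9 CPM) and Per1 (40.3, 44.3 and 55.9 CPM) within 1.5-fold. None of these 3 genes passed it in either comparison, where 6.31% of all genes did with diet and 6.07% with genotype. In B cell-like cells Per1 was the 1 gene with enough UMIs, at 24.0 CPM in WT CD, 22.7 in WT HFD and 14.7 in KO HFD. It was within 1.5-fold with diet (background 8.88%) and past it with genotype (background 18.1%), from 8 UMIs in KO HFD and with a log2 interval of −1.97 to 0.56. Below the count needed, B cell-like Arntl was at 4.58, 11.8 and 16.6 CPM (16, 14 and 9 UMIs) and Nr1d2 at 8.87, 16.8 and 18.4 CPM (31, 20 and 10 UMIs), both lowest in WT CD.

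**Figure D3:**
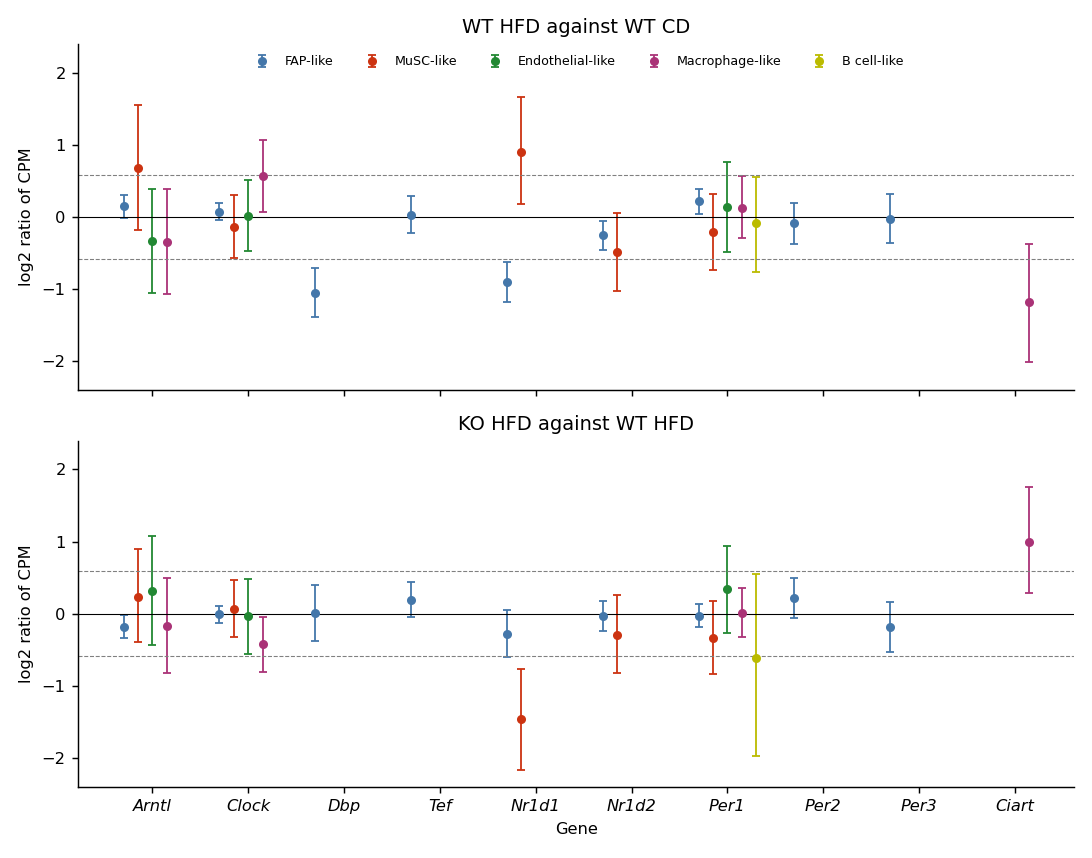
Log2 ratio of CPM (y axis) of WT HFD to WT CD (top) and of KO HFD to WT HFD (bottom) for each clock gene (x axis), with 1 point per cell class that had at least 100 UMIs and exact 95% intervals as bars. Dashed lines mark 1.5-fold. In the top panel Nr1d1 lies at −0.90 in FAP-like and at 0.91 in MuSC-like cells.

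The classes were then set side by side. With diet, 5 of the 22 pairs passed 1.5-fold: Dbp and Nr1d1 lower in FAP-like, Nr1d1 and Arntl higher in MuSC-like, and Ciart lower in macrophage-like cells. The count was also 5 under TMM scaling, with Nr1d2 lower in MuSC-like cells in place of Arntl. With genotype, 3 of 22 passed: Nr1d1 lower in MuSC-like, Ciart higher in macrophage-like and Per1 lower in B cell-like cells. Of all genes, 4.68% passed with diet in FAP-like, 20.9% in MuSC-like, 6.31% in endothelial-like, 12.2% in macrophage-like and 8.88% in B cell-like cells. With genotype these shares were 3.46, 5.09, 6.07, 6.42 and 18.1%. Counting direction alone over all 5 classes, those below the count needed included, Arntl was higher with diet in 3 and lower in 2, Nr1d1 higher in 2 and lower in 3, and Per1 higher in 3 and lower in 2. Per2 and Ciart were each higher with diet in 1 and lower in 4, and the other genes split 3 to 2 either way. Several of these directions rest on few UMIs. Over the 3 libraries Per2 had 2 in B cell-like and 10 in endothelial-like cells, and Ciart had 7 in MuSC-like and 7 in endothelial-like cells. With genotype Tef was higher in 4 and lower in 1, and each other gene was higher in 2 or 3. Among genes with enough UMIs in both classes, the diet intervals of MuSC-like and FAP-like cells did not overlap for 1 of 5 clock genes, Nr1d1, beside 17.6% of all genes. They overlapped for all 3 clock genes set between endothelial-like and FAP-like cells and for all 3 between macrophage-like and FAP-like cells, where 9.30% and 15.1% of all genes did not overlap. These shares are near the background, and the other pairs had too few UMIs to be read. Macrophage-like Nr1d1, below the count needed, was also highest in WT HFD. It was at 3.95 CPM in WT CD, 6.51 in WT HFD and 4.61 in KO HFD (10, 28 and 24 UMIs). With pairs below that count included, 2 other classes had a Nr1d1 diet interval apart from that of FAP-like cells. For Nr1d2 it was 1 class, and for each other gene 0. No share of all genes is given for such low counts, so these numbers of classes are not read as a result about the clock genes. Across the 10 genes, Pearson's r between the diet log2 ratios of 2 classes ran from −0.46 to 0.53 over the 10 pairs of classes, with a median of −0.20, and was above 0 in 4. FAP-like cells gave −0.41 with MuSC-like, −0.24 with macrophage-like, 0.53 with endothelial-like and 0.33 with B cell-like cells. For genotype r ran from −0.78 to 0.86, with a median of 0.14, and was above 0 in 6, with 0.31, 0.86, −0.78 and 0.47 for those same pairs. The points are genes with few UMIs in the smaller classes, and the classes of a library share mice, hour and handling, so r is a description without a test. Set against WT CD, KO HFD had in MuSC-like cells log2 ratios of 0.91 (0.17 to 1.71) for Arntl, −0.77 (−1.26 to −0.28) for Nr1d2 and −0.54 (−1.03 to −0.06) for Per1. The interval left out 0 for these 3 of the 5 clock genes with enough UMIs there, beside 30.5% of all genes. Outside FAP-like cells Dbp had too few UMIs to set a size: its diet log2 ratio was 0.30 (−0.85 to 1.47) in MuSC-like and 0.16 (−1.01 to 1.43) in macrophage-like cells. Both of those intervals reach into that of FAP-like cells.

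Within the FAP-like cells the differences in Dbp and Nr1d1 were uneven. The cells of the series were clustered without the 10 clock genes, which gave 8 clusters with FAP markers. In the cluster led by Sfrp4 and Dio2, a Wnt antagonist and a thyroid hormone deiodinase, Dbp was at 36.4 CPM in WT CD (121 UMIs), 4.16 in WT HFD (15 UMIs) and 7.39 in KO HFD (22 UMIs). Nr1d1 was at 37.0, 11.7 and 11.1 CPM there. In the other 7 clusters the WT CD level of Dbp ran from 3.28 to 10.9 CPM. In 2 clusters WT CD was the lowest library, that led by Sfrp2 and Avpr1a, with 3.28 CPM in WT CD, 8.51 in WT HFD and 7.90 in KO HFD, and that led by Myoc, with 5.31, 7.10 and 6.59 CPM. Nr1d1 was higher in WT CD than in WT HFD in all of these clusters but the one led by Agt and Sult1e1 (3.49 against 4.43 CPM). By the markers of the study's FAP subsets, Dbp was at 7.91, 5.32 and 5.44 CPM in FAP1-marked, 6.20, 5.46 and 3.54 in FAP2-marked and 16.6, 9.59 and 9.33 in FAP4-marked cells. The FAP4-marked values rest on 17, 9 and 12 UMIs in 5, 4 and 8 cells. FAP-like cells without the markers of a single subset had 15.2, 5.57 and 6.34 CPM.

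The Sfrp4 cluster, taken because its pooled Dbp level was the highest of the clusters with FAP markers, was clustered again. This was also done without the clock genes and after the values above were known. Of its 9 subclusters, the one with the highest pooled Dbp level was picked. That subcluster, led by Lcn11, Aqp2, Tcf21, Wnt4 and Moxd1, held 60 cells of WT CD, 14 of WT HFD and 32 of KO HFD. Its WT CD cells carried 96 Dbp UMIs, and the high-fat libraries carried 0 and 0. That is 115 CPM in WT CD, at least 7.35-fold higher than in WT HFD and at least 15.5-fold higher than in KO HFD, with 3 UMIs per library taken as the floor for a count of 0. The exact intervals of these ratios, which also hold the counting error of the 96 UMIs, began at 5.86 and 12.3. They do not allow for the choice of the subcluster by its Dbp level, so these Dbp values describe it and are no separate support for a difference. Nr1d1 was at 86.0, 26.0 and 14.8 CPM (72, 5 and 6 UMIs), Nr1d2 at 44.2, 10.4 and 9.89 CPM (37, 2 and 4 UMIs) and Tef at 28.7, 5.20 and 7.41 CPM (24, 1 and 3 UMIs). Arntl, by contrast, was at 25.1, 31.2 and 24.7 CPM and Clock at 68.1, 36.4 and 54.4 CPM.

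The subcluster was not alike in the 3 libraries in its leading genes either. Aqp2 (46.6, 62.4 and 54.4 CPM) and Pianp (81.2, 78.0 and 96.4 CPM) were near level, whereas Tcf21 (77.6, 0 and 7.41 CPM) and Wnt4 (264, 72.8 and 86.5 CPM) were highest in WT CD. Lcn11 itself was at 64.5, 46.8 and 14.8 CPM, lowest in KO HFD, and Col6a5 at 614, 837 and 1288 CPM, highest there. Acta2 and Tagln, contractile genes that mural cells share, were at 106, 5.20 and 0 CPM and at 78.8, 10.40 and 9.89 CPM, and Ccl9 at 60.9, 0 and 0 CPM. The 6 mural markers summed to 76.4, 62.4 and 138 CPM, with Abcc9 the most abundant (64.5, 52.0 and 89.0 CPM), Myh11 at 0 in all 3 libraries and Rgs5 at 0, 0 and 1 UMI. Kcnj8 was at 4.78, 5.20 and 39.5 CPM (4, 1 and 16 UMIs). The part of these genes in the Dbp values was not tested. Whether the same kind of cell differs between the libraries or the WT CD library holds cells that the others lack cannot be told apart with 1 library per group. Its cells were deep, with medians of 13276.5, 14340 and 12673.5 UMIs, and Scrublet called 0 of them as doublets. The subcluster held 2.68% of the FAP-like cells of WT CD and 4.14% of their UMIs, but 40.3% of their Dbp UMIs and 21.1% of their Nr1d1 UMIs. Without it, Dbp in FAP-like cells was at 7.30 CPM in WT CD, 5.73 in WT HFD and 5.84 in KO HFD, and the diet log2 ratio was −0.35 (−0.73 to 0.03). Nr1d1 without it was at 13.8, 8.78 and 7.26 CPM, with a diet log2 ratio of −0.65 (−0.94 to −0.36). Left without these cells, the Dbp ratio was within 1.5-fold and its interval held 0, and the Nr1d1 ratio stayed past 1.5-fold. The cells were picked by their Dbp level and all of their Dbp UMIs were of WT CD, so leaving them out could only raise the Dbp ratio. Nr1d1 was not used to pick them, so the outcomes of the 2 genes are not on equal terms.

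**Figure D4:**
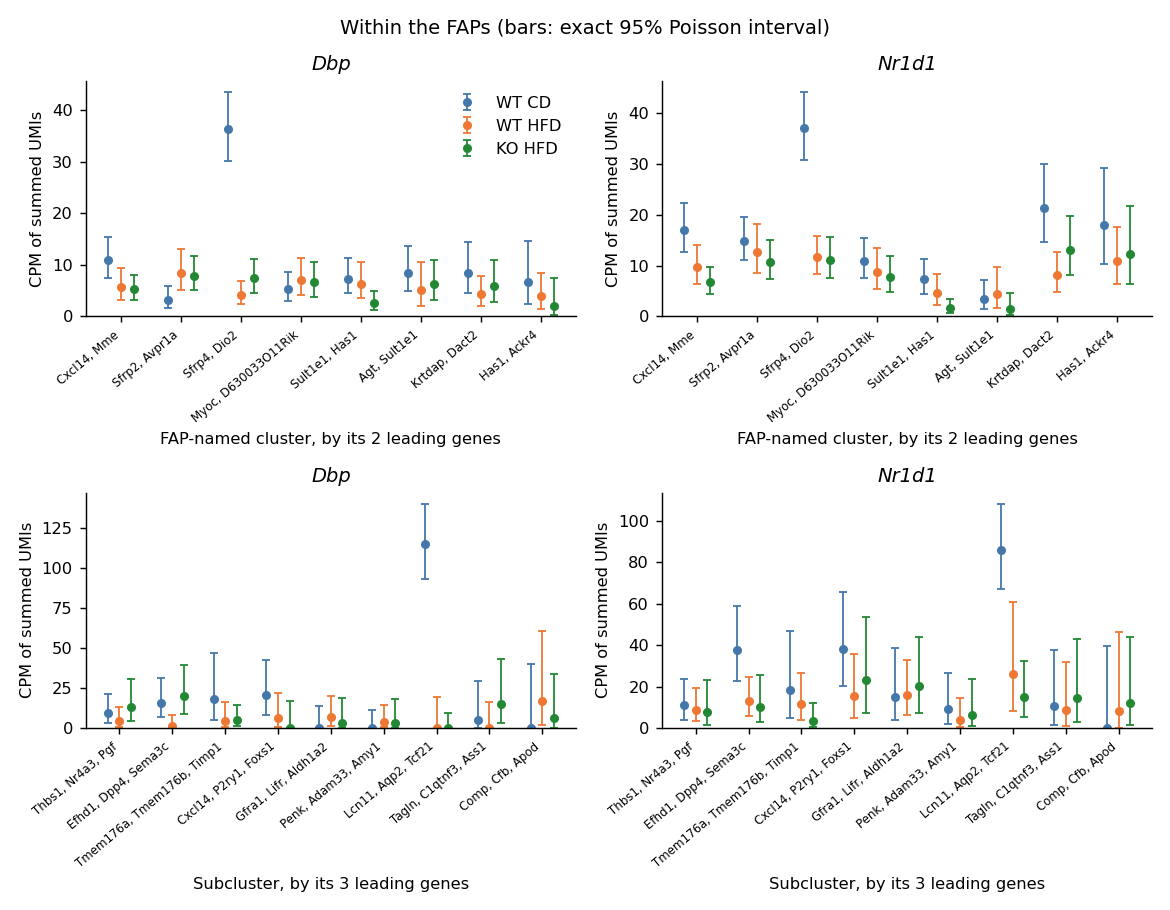
CPM of summed UMIs (y axis) of Dbp (left) and Nr1d1 (right) in the 8 clusters with FAP markers (top) and in the 9 subclusters of the cluster led by Sfrp4 and Dio2 (bottom), 1 point per library, with exact 95% Poisson intervals as bars. WT CD stands out in the Sfrp4 cluster, at 36.4 CPM of Dbp, and within it in the subcluster led by Lcn11, at 115 CPM.

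The clock genes were then read in single cells by their Dbp UMIs. Counts of FAP-like cells with at least 2 Dbp UMIs were 46 of 2203 in WT CD, 13 of 1967 in WT HFD and 15 of 2401 in KO HFD, and the most in 1 cell were 13, 5 and 4 UMIs. The threshold of 2 was set after the values were seen. These cells were somewhat deeper than those with 0 Dbp UMIs, with medians of 11246.5 against 8464 UMIs in WT CD, and CPM takes depth into account. In WT CD, Nr1d1 was at 155 CPM (125 to 189) in the 46 cells and at 11.6 CPM in the 2086 cells without Dbp. The 46 cells include nearly all of the 19 such cells of the Lcn11 subcluster, which are read again below. Nr1d2 was at 90.5 CPM (68.2 to 118) against 20.5, Tef at 47.7 (32.0 to 68.6) against 11.4, and Per3 at 21.4 (11.4 to 36.6) against 6.98. Arntl had the reverse difference, at 9.88 CPM (3.62 to 21.5) against 31.7. Clock was at 41.2 CPM against 60.2, Per1 at 14.8 against 26.3 and Per2 at 8.23 against 11.0.

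The high-fat libraries had fewer such cells. In the 13 WT HFD cells with at least 2 Dbp UMIs, Nr1d1 was at 96.8 CPM (52.9 to 162) against 8.06 in cells without Dbp, Nr1d2 at 118 (68.5 to 188) against 19.0 and Tef at 62.2 (28.5 to 118) against 12.3. Arntl was at 13.8 CPM (1.67 to 49.96) against 34.2, an interval that holds the level of the other cells. In the 15 KO HFD cells, Nr1d1 was at 48.8 CPM (21.1 to 96.1) against 6.73, Nr1d2 at 73.2 (37.8 to 128) against 18.2, Tef at 30.5 (9.90 to 71.2) against 14.98 and Arntl at 6.098 (0.154 to 34.0) against 30.6, again an interval that holds the level of the other cells. The Arntl values of the high-fat libraries rest on 2 and 1 UMIs. Per1 and Per2 did not keep 1 direction: in WT HFD they were at 48.4 against 29.97 CPM and at 20.7 against 10.1, and in KO HFD at 6.098 against 30.3 and at 18.3 against 11.9. In all 3 libraries Nr1d1 and Nr1d2 were higher in the cells with at least 2 Dbp UMIs. In cells with exactly 1 Dbp UMI, 71 in WT CD, 70 in WT HFD and 87 in KO HFD, Nr1d2 was at 40.2, 13.98 and 31.7 CPM, Nr1d1 at 34.0, 13.98 and 15.8 CPM and Arntl at 23.2, 36.4 and 21.9 CPM. In WT HFD, Tef (25.2 CPM, 14.9 to 39.8) and Nr1d1 in these cells lay above cells without Dbp, as in those of at least 2. Nr1d2 lay under and Arntl over the level of cells without Dbp. The intervals of Nr1d1 and Nr1d2 (6.71 to 25.7 CPM each) and of Arntl (23.7 to 53.3 CPM) held that level. Cells of a library are not replicates, and this is a description of the 3 libraries.

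In the Lcn11 subcluster of WT CD, 19 cells with at least 2 Dbp UMIs held 93 of the 96 Dbp UMIs, and the 38 cells with 0 had similar depth (medians of 14527 and 12915 UMIs). Nearly all of the 19 cells are also among the FAP-like cells with at least 2 Dbp UMIs above, so the 2 readings are not independent. Nr1d1 was at 168 CPM (124 to 222) in the 19 cells and 43.4 (27.2 to 65.7) in the 38. Nr1d2 was at 82.4 CPM (52.8 to 123) against 19.7 (9.46 to 36.3). Arntl had 1 UMI in the 19 cells and 20 UMIs in the 38, or 3.43 CPM (0.0869 to 19.1) against 39.4 (24.1 to 60.9). Of the further clock genes, Hlf, of the Dbp family, was at 44.6 CPM against 51.3, Rora, an activator of Arntl, at 168 against 178, Bhlhe41, a repressor of the E-box pair, at 58.4 against 29.6, and Nfil3, a D-box repressor, at 20.6 against 55.2, each with intervals that overlapped. The 19 and the 38 cells also differed outside the clock. The chemokine Ccl9 had 51 UMIs in the 19 cells and 0 in the 38, and the contractile genes Acta2 and Tagln were at 137 against 75.0 CPM and at 151 against 29.6 CPM. Abcc9, a potassium channel subunit, was at 13.7 CPM against 98.6. Kcnj8, another of the mural markers, went the other way, with 4 UMIs in the 19 cells and 0 in the 38. The 6 mural markers summed to 34.3 CPM against 107. These genes were named after their values were seen, and whether the 19 cells are a kind of cell of their own was not tested. The 2 mice pooled in the library are not marked in the data, so cells of 1 mouse and cells of both cannot be told apart.

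**Figure D5:**
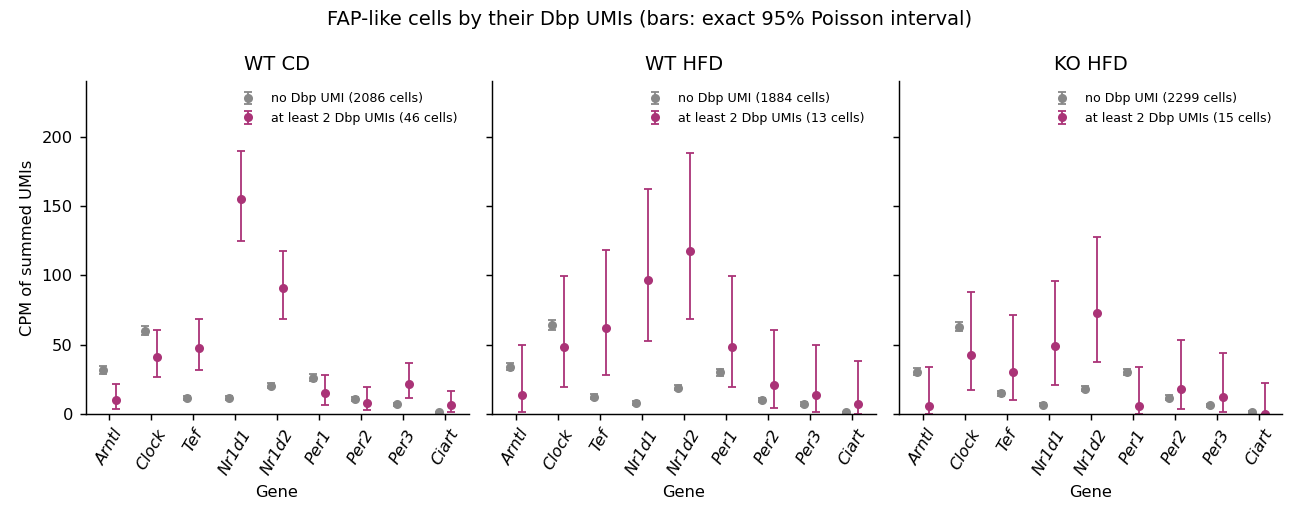
CPM of summed UMIs (y axis) of the other 9 clock genes (x axis) in FAP-like cells with no Dbp UMI and with at least 2, 1 panel per library, with exact 95% Poisson intervals as bars. In each library Nr1d1 and Nr1d2 lie higher in the cells with at least 2 Dbp UMIs, and Arntl lies lower, with intervals that hold the level of the other cells in WT HFD and KO HFD.

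A further 16 clock genes were read as a list chosen by name. In FAP-like cells 15 of them had enough UMIs, and 0 of 15 passed 1.5-fold in either direction with diet (median log2 ratio 0.13) or genotype (−0.01). The cryptochromes, partners of the period proteins, were at 13.8, 13.3 and 16.3 CPM (Cry1) and 15.8, 16.1 and 14.2 CPM (Cry2) in WT CD, WT HFD and KO HFD. Rora, which competes with the REV-ERB proteins at Arntl, was at 140, 161 and 156 CPM. Hlf, of the same family as Dbp and Tef, was at 24.7, 25.4 and 28.1 CPM, and Nfil3 at 58.4, 55.0 and 67.8 CPM.

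In the other classes single genes of this list passed 1.5-fold, beside shares of all genes of 20.9% in MuSC-like, 12.2% in macrophage-like, 6.31% in endothelial-like and 8.88% in B cell-like cells with diet, and of 5.09, 6.42, 6.07 and 18.1% with genotype. These shares are also the background for the lists that follow, with 4.68 and 3.46% in FAP-like cells. In MuSC-like cells 1 of 8 was past it with diet, Csnk1d, a kinase of the period proteins, at 155 CPM in WT CD and 96.5 in WT HFD, and 0 of 8 with genotype. In macrophage-like cells 3 of 6 were past it with diet, among them Nfil3 lower (195 to 128 CPM) and Wee1 higher (11.8 to 17.9 CPM), and 0 of 6 with genotype. In endothelial-like cells 0 of 6 passed with diet and 1 of 6 with genotype, Rora, at 31.9 CPM in WT HFD and 73.1 in KO HFD. In B cell-like cells 0 of 5 passed with diet and 1 of 5 with genotype, Bhlhe40, at 42.0 and 66.3 CPM.

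Lists of genes that answer signals able to reset or mask the clock were read beside it. Of 9 glucocorticoid response genes in FAP-like cells 1 passed 1.5-fold with diet, Zbtb16, higher at 46.3 CPM in WT HFD than at 30.6 in WT CD, and 0 of 9 with genotype. The list's summed level was 4205, 4382 and 5263 CPM, and Mt1, its most abundant gene, was at 1608, 1661 and 2136 CPM. Of 9 immediate early genes 0 passed with diet and 1 with genotype, Nr4a1, at 378 CPM in WT CD, 282 in WT HFD and 425 in KO HFD, and the summed level was 14292, 12951 and 15818 CPM with Fos the most abundant. In the other classes the glucocorticoid genes past 1.5-fold with diet were 1 of 8 higher in MuSC-like, 3 of 7 higher in endothelial-like, 3 of 9 higher in macrophage-like and 0 of 3 in B cell-like cells. With genotype they were 0 of 8, 2 of 7 higher, 1 of 9 lower, and 1 higher with 2 lower of 3. The immediate early genes past it with diet were 1 of 9 lower in MuSC-like, 0 of 9 in endothelial-like, 1 of 9 higher in macrophage-like and 1 of 9 lower in B cell-like cells. With genotype they were 0 of 9, 2 of 9 higher, 1 of 9 lower and 0 of 9. In MuSC-like cells the shares of both lists with diet were under that of all genes, 20.9%, and for immediate early genes in macrophage-like and B cell-like cells the share was near it.

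Some heat shock genes were lower with diet past 1.5-fold in 4 of the 5 classes. The list of 7 temperature genes held Hspa1a, Hspa1b, Hsph1, Dnajb1 and Hsp90aa1, and the cold-inducible Cirbp and Rbm3, which passed with diet in no class. Of the 7, 2 were past 1.5-fold lower with diet in FAP-like cells, Hspa1a (324 to 161 CPM) and Hspa1b (261 to 122 CPM), with 225 and 173 CPM in KO HFD. Hsph1 (83.1 to 71.0 CPM), Dnajb1 (247 to 171 CPM) and Hsp90aa1 (922 to 718 CPM) were within it there. The count past 1.5-fold lower was 4 of 7 in MuSC-like, 4 of 7 in endothelial-like, 3 of 7 in macrophage-like and 0 of 7 in B cell-like cells. Of all genes, 2.33% were past it lower with diet in FAP-like, 3.12% in MuSC-like, 2.71% in endothelial-like, 4.49% in macrophage-like and 2.24% in B cell-like cells. With genotype 1 of 7 was past it higher in endothelial-like and in macrophage-like cells, and 0 of 7 in the other 3 classes. The summed level in FAP-like cells was 2079, 1454 and 1860 CPM. Heat shock genes answer warm digestion and stress as well as body temperature, and the part of this list in the clock values was not tested.

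Of 6 genes of fasting and fatty acid use, 2 passed 1.5-fold higher with diet in FAP-like cells, Angptl4, a lipase inhibitor, at 13.8 CPM in WT CD, 56.4 in WT HFD and 41.0 in KO HFD, and Cpt1a, of mitochondrial fatty acid entry, at 27.9, 49.0 and 47.5 CPM. None of the 6 passed with genotype. With diet 3 of 5 passed higher in MuSC-like, 0 of 2 in endothelial-like, 2 of 3 in macrophage-like and 1 of 1 in B cell-like cells, and with genotype none did in these 4 classes. Of all genes, 2.34% were past it higher with diet in FAP-like, 17.7% in MuSC-like, 3.60% in endothelial-like, 7.67% in macrophage-like and 6.64% in B cell-like cells. In macrophage-like cells Plin2, of the lipid droplet coat, was at 134, 359 and 422 CPM. Fiber genes were low in FAP-like cells, at summed levels of 35.8, 29.8 and 32.7 CPM, with Acta1 most abundant at 13.3, 8.38 and 9.36 CPM in WT CD, WT HFD and KO HFD. Of the 5 fiber genes with enough UMIs there, 1 was past 1.5-fold higher and 1 lower with diet, and 0 with genotype. In endothelial-like and macrophage-like cells 1 fiber gene had enough UMIs, Acta1, which was past 1.5-fold higher with diet in both, and in B cell-like cells none had.

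The genes whose pattern was most like that of Dbp and Arntl were found over 15 points, 5 classes in 3 libraries, by Pearson's r of log2 CPM centred within each class among 5576 genes. For Dbp they included Gm8369 (0.81), Dll4 (0.76), Epb41 (0.73) and AY036118 (0.72). For Arntl they were Cdk19 (0.95), Paip1 (0.94), Clasp2 (0.93), Arhgap1 (0.93) and Rragc (0.91). Most of the 10 clock genes averaged under the 20 CPM needed to be compared, so they could not be named here. Points of a library share its cells and depth, Gm8369 and Dll4 were at 0.302 CPM or less in FAP-like cells, and the r values are given without a test.

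The genes lie on GRCm38 (GENCODE M21) at chr7:45705088-45710203 for Dbp on the plus strand and chr11:98767932-98775333 for Nr1d1 on the minus strand. On the plus strand lie also Arntl (chr7:113207465-113314126), Tef (chr15:81802421-81826863) and Per1 (chr11:69095217-69109960). On the minus strand lie Clock (chr5:76209868-76304792), Nr1d2 (chr14:18204054-18239127), Per2 (chr1:91415982-91459324), Per3 (chr4:151003652-151044665) and Ciart (chr3:95878503-95882251). Dbp and Nr1d1 each overlap a gene of the other strand, Sphk2 and Thra. In FAP-like cells Sphk2 was at 8.81, 7.69 and 8.24 CPM and Thra at 120, 132 and 115 CPM, without the step seen in Dbp and Nr1d1. Per3 overlaps Camta1 on its own strand, at 22.6, 22.3 and 22.6 CPM, so reads shared by that pair cannot be told apart.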

How the data were processed

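Cells from digested costal diaphragm were captured with the 10x Genomics 3′ chemistry, 2 mice pooled per library. The authors mapped the reads to GRCm38 with Cell Ranger and deposited whole-number UMI counts per gene and barcode, not normalized, for called cells. The file headers name Cell Ranger 6.1.0 and the submitters' processing notes 6.1.1. All 12275 barcodes were kept here. Depth was 31967976 to 36478779 UMIs per library, and intervals (exact Poisson for levels, exact conditional binomial for ratios, 95%) cover counting error only, since each group is 1 library.

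Cells were gated on 6 markers per class (Ccl21a, listed under 2 gene entries, was read from either), UMIs were summed per class and library and divided by the class total, and ratios were read in genes with at least 100 UMIs. Clusters were found with scanpy 1.11.5 and leidenalg 0.10.2 without the 10 clock genes, and doublets were called by Scrublet in scanpy (1.26, 1.09 and 1.33% of barcodes) and kept except in 1 alternative. Intervals and ratios were tested on simulated data. TMM factors came from edgeR 4.0.16 in R 4.3.3, and numpy 2.4.6, scipy 1.17.1 and matplotlib 3.10.9 in Python 3.11.15 did the rest. Named were the 10 genes, genes of the lists, and the 5 genes most like Dbp and like Arntl with at least 20 CPM on average, with 0.5 counts added before the log. Values of 2 genes that this rule names are not reported here. The genes and lists were chosen with earlier results of these data known. The subcluster, the shares of clusters within MuSC-like and macrophage-like cells, the threshold of 2 Dbp UMIs and the genes compared in those cells were chosen after their values were seen. Alternatives changed the gate, clusters, cell filter, doublets, cell weight, depth, scaling and count minimum.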

Additional observations from a re-analysis of the deposited data

Results flagged for a closer look

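The diet difference of Nr1d1 went in opposite directions in 2 cell classes of the same libraries. In MuSC-like cells the gene had 102 UMIs in all, barely over the count needed to be read. It passed that count through WT HFD, the library where it was high. The log2 ratio of WT HFD to WT CD was −0.90 in FAP-like cells (332 and 169 UMIs in WT CD and WT HFD) and 0.91 in MuSC-like cells (25 and 47 UMIs), each past 1.5-fold. The intervals, −1.17 to −0.63 and 0.18 to 1.67, did not overlap, as held for 17.6% of all genes, and they cover counting error only, and with 1 library per group the difference between the classes was not tested. RNA of muscle fibers was also higher in the WT HFD library of MuSC-like cells, at a summed 495 CPM against 246 CPM in WT CD, and its part in the Nr1d1 values was not tested.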

How the results depend on the processing

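In FAP-like cells the diet log2 ratio of Dbp ran from −1.54 (every cell thinned to 3000 UMIs, which left out 49, 19 and 37 shallower FAP-like cells of WT CD, WT HFD and KO HFD) to −0.75 (each cell weighted alike) over the settings tried, and that of Nr1d1 from −1.05 to −0.86. After the data were seen, FAP-like cells were also read without the subcluster led by Lcn11, which gave −0.35 for Dbp and −0.65 for Nr1d1, and without the whole Sfrp4 cluster, which gave −0.21 and −0.62. Both sets of cells were picked by their Dbp level, and these Dbp ratios cannot be read apart from that choice. Thinning to 3000 UMIs moved the genotype ratio of Dbp to 0.69, and the cause was not tested. The number of pairs of gene and class past 1.5-fold with diet, 5 in the report, was 3 at 4 of 6 markers, 2 when thinned, 12 at a minimum of 30 UMIs and 2 at 300. With genotype, 3 in the report, it was 1 at 4 of 6 markers, 1 when thinned, 8 at 30 UMIs and 0 at 300. Fewer pairs had enough UMIs under the stricter gate (19), when thinned (12) and at 300 UMIs (11), against 22. The share of all genes past 1.5-fold under each of these settings is not given here, so the counts describe the settings and not the clock genes. TMM scaling kept the diet count at 5 but exchanged Arntl (0.44) for Nr1d2 (−0.72) in MuSC-like cells. Per1 in B cell-like cells reversed, to 0.26, when each cell weighed the same, and the cause was not tested. The 6 other ratios that moved by more than their counting interval did so under thinning and were of pairs within 1.5-fold in the report; they then ran from −0.57 (Clock, endothelial-like, diet) to 1.14 (Clock, macrophage-like, diet). The number of classes in which a gene was higher moved by over 1.5 times in 24 readings and not in the other 136. Depth limited Dbp outside FAP-like cells, with at most 52 UMIs in a class, and Nr1d1 in endothelial-like and B cell-like cells. No paired analysis was possible because each group has 1 library.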
